A study of Mus musculus with 3 samples.

Results

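The islands described here are short stretches of mouse autosomal sequence that carried RNA-seq alignments in every litter of 2-cell embryos, with almost none in the sequence around them. A window of 1 kb was a member when its level reached 1 alignment per kb per 1000000 nuclear alignments in each of 3 litters, and when the 10 kb beginning 1 kb beyond each side held fewer than 10 alignments summed over litters. Of 2472334 autosomal windows, 30012 (1.21%) were at the level in every litter, and 1867 of those (6.22%) also had both flanks under the limit. Adjacent member windows were joined, which gave 1539 islands: 1211 of 1 window and 328 of 2 windows. Levels and flanks chose the members, so both are given as a description.

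By the 2-cell stage the mouse embryo has started to transcribe its own genome while RNA laid down in the oocyte is being removed. Mammalian genomes hold many short sequences that resemble a transcript made elsewhere. Among them are processed pseudogenes, which are copies of spliced mRNA inserted by reverse transcription and so lack the introns of the gene they came from, and nuclear copies of mitochondrial DNA. Where sequences are nearly identical, 1 read can be placed at each of them, and the files hold no mark of this. The level of an island with copies elsewhere therefore cannot be told apart from that of its copies.

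There was 1 group, with 3 libraries from separately labelled litters collected at embryonic day 1.5. The mothers were of mixed strain and LSD1 FL/FL, a floxed allele of a histone demethylase gene, without ZP3::Cre, which drives Cre recombinase in growing oocytes. The fathers are called wild type CB6 in one label and C57/Bl6J in another. RNA had been amplified with SPIA, a linear isothermal method. Nuclear alignments numbered 34014013, 32431630 and 40474940 in litters 1 to 3, so the limit corresponded to 35, 33 and 41 alignments per window. The coverage carries no strand, and every covered nuclear stretch could be read as alignments of 72 bases without gaps, so spliced alignments are not in it. The files do not pair positions with nuclear genes, and an annotation or genome of their build, mm9, was not used here, so islands are named by position and no island sequence is printed.

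The rule bounds the width of an island and its distance to other windows at the level, so both are a description. The block, the covered run with the most alignments after uncovered gaps of up to 100 bases were joined, had a median width of 471 bases, and the middle 80% ran from 123 to 1349 bases. Of the 1539 blocks, 323 were under 200 bases and 1248 (81.1%) under 1000 bases. The narrowest, chr2:164468521-164468594, was 74 bases wide with 3 start positions, and held 77, 85 and 90 alignments in litters 1 to 3. The widest, chr18:80323084-80325919, was 2836 bases wide with 631 start positions and levels of 13.8, 11.1 and 16.1. Windows that adjoin an island can also be at the level, and were left out of the distance. The nearest window at the level beyond them was a median of 128 kb away, and over 100 kb away for 871 islands. In 320 islands (20.8%) both flanks held 0 alignments, so for the others the surrounding sequence was nearly rather than wholly empty. Whether flanks contain assembly gaps was not analysed here.

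The median level over islands was 9.17, 8.33 and 9.40 in litters 1 to 3, in alignments per kb per 1000000 nuclear alignments. Levels were uneven: the 10 highest islands took 38.1% of the summed mean levels and the 100 highest took 66.4%. A mean level of 10 or more was reached by 742 islands and of 100 or more by 106. Together the islands held 10.4%, 7.74% and 9.68% of nuclear alignments in litters 1 to 3, and 7.66% ± 1.27 (SD, n = 3) without the highest island. Islands are named by the coordinates of their block, while levels and alignment counts printed with them are those of the member windows. A block can reach beyond its member windows: in 422 islands it held more alignments than they did, and in 129 over 1.5 times as many. The level of a joined island is a mean over both windows.

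**Figure D1:**
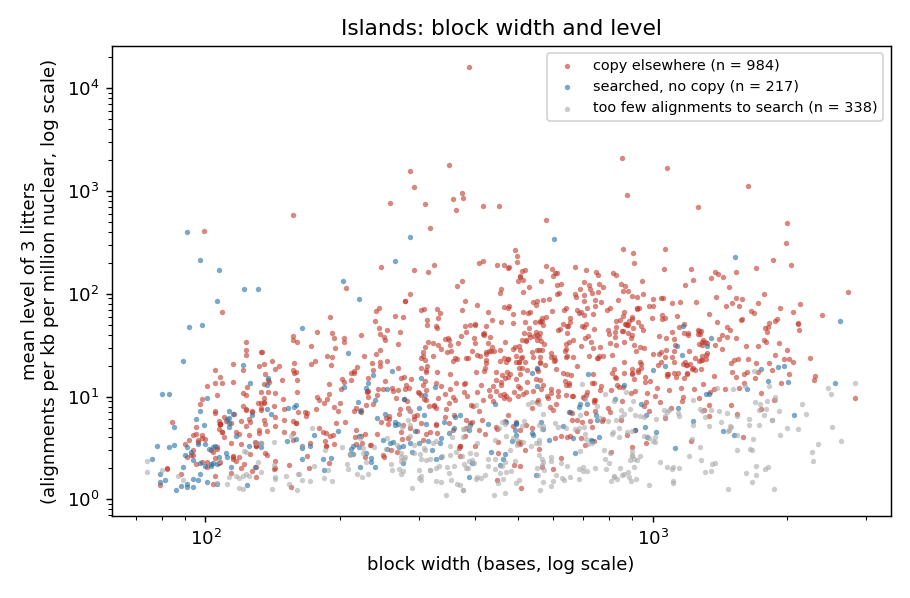
Block width (bases, log scale) against mean level over 3 litters (alignments per kb per 1000000 nuclear alignments, log scale), with a point for each of 1539 islands coloured by the result of the search for copies elsewhere. Most points with a copy lie above those with too few alignments to search, whose median level was 2.72 against 18.6.

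Neither limit fell in a gap of the data. Among windows with both flanks under the limit, 113 had a lowest litter level from 1 to 1.2, and 173 lay just outside, from 0.8 to 1. The windows just outside, chr12:117013001-117014000 and chr19:28817001-28818000, had 34, 52 and 81, and 34, 37 and 79 alignments in litters 1 to 3, so litter 1 fell short by 1 alignment in each. The members just inside, chr1:46953001-46954000 and chr1:101211001-101212000, had 61, 39 and 41, and 37, 69 and 41. Windows at the level whose fuller flank held 8 or 9 alignments numbered 91 and 104, against 67 and 88 with 10 or 11.

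The highest island, chr10:95540156-95540543, had levels of 16758, 14925 and 16117 in litters 1 to 3. It lay above every other island in all litters and its litters differed little. The second, chr13:85266269-85267123, had 2421, 2379 and 1448, with litter 3 lowest. The third, chr1:56838890-56839240, had 2550, 575 and 2227, and the fourth, chr15:86024918-86025993, had 2527, 475 and 2032. In both, litter 2 stood far below the other litters. The fifth, chr13:9833524-9833809, had 2087, 1167 and 1469. The sixth, chr11:8238058-8239691, went the other way, with 756, 1687 and 893. Litter 2 was thus the highest there. The seventh, chr6:145881265-145881556, had 1636, 310 and 1363, and the tenth, chr6:44742924-44743299, had 1265, 253 and 1025. The ninth, chr9:123370908-123371784, had 1388, 259 and 1120. The ninth and the tenth blocks began before their member windows, and held 83307, 19091 and 83644, and 70433, 13026 and 68716 alignments, against 47224, 8403 and 45342, and 43033, 8211 and 41496 in the windows. The eighth, chr12:98299633-98300007, had 1004, 956 and 936, the closest agreement between litters among these 10.

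**Figure D2:**
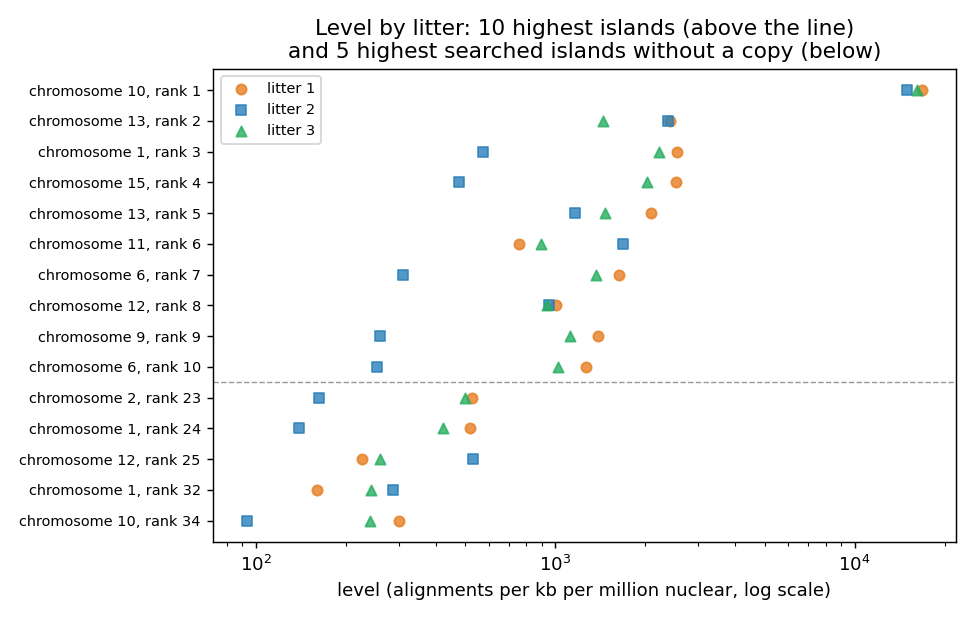
Level in each litter (alignments per kb per 1000000 nuclear alignments, log scale) for the 10 highest islands and, under the dashed line, the 5 highest searched islands without a copy elsewhere; points are single litters and ranks are by mean level. Litter 2 lies well to the left in several islands, such as the third at 575 against 2550 and 2227, and to the right in the sixth.

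Of the 10 highest islands, 3 repeated the start pattern of the mitochondrial chromosome. In mitochondria both strands are transcribed into long precursors, from which the ribosomal RNAs and mRNAs are cut. The comparison used 670 islands with at least 40 start positions of 10 or more alignments, and the limits (a correlation of log start counts of at least 0.8 and a total within 80% to 120% of the mitochondrial one, in every litter) were chosen after the values were seen. The chromosome 12 island matched mitochondrial bases 15671 to 16042 in the same orientation, in the control region, where no gene is annotated. Its total was 99.3%, 99.2% and 99.1% of the mitochondrial total over the same starts in litters 1 to 3. The highest chromosome 13 island matched bases 12446 to 13291 in reverse, within mt-Nd5, a subunit gene of NADH dehydrogenase, at 91.7%, 91.6% and 91.5%. The chromosome 10 island matched bases 1507 to 1882 in reverse, within mt-Rnr2, the large ribosomal RNA gene, at 91.1%, 90.6% and 90.9%. The share was nearly constant over litters in each. The correlations were 0.989, 0.911 and 0.818 at their lowest. The next island reached 0.802, and its total was 15.0%, 19.3% and 24.6% of the mitochondrial one. Positions of mitochondrial genes come from the GENCODE M21 annotation of GRCm38, whose mitochondrial chromosome is taken to be the same as in the files (16299 bases there).

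Most islands that could be searched had a copy elsewhere. A copy was called where 5 or more start positions with at least 10 alignments had the same 3 litter counts, at the same spacing and in one orientation, at a place over 10 kb away on any chromosome or contig. Of 1539 islands, 1201 had enough such positions, and 984 of those (81.9%) had a copy. The search found none for 217, and 338 had too few alignments to be searched. Counted by window, 1177 of 1446 searched member windows (81.4%) had a copy, against 7573 of 16536 (45.8%) of the other windows at the level. With 5 to 19 searchable starts these shares were 54.3% and 28.6%, with 20 to 99 they were 88.4% and 46.1%, with 100 to under 300 they were 97.7% and 66.1%, and with 300 to 1000 they were 99.1% and 84.0%. The share was therefore higher in member windows in each class, and rose with the number of starts in both kinds of window. Some places rested on only 5 matched starts, such as chr7:68225904-68226311 for the sixth island, which had 1250 searchable starts. How often such matches arise by coincidence in these data was not measured. Windows share libraries and sources, and no test across windows was made.

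**Figure D3:**
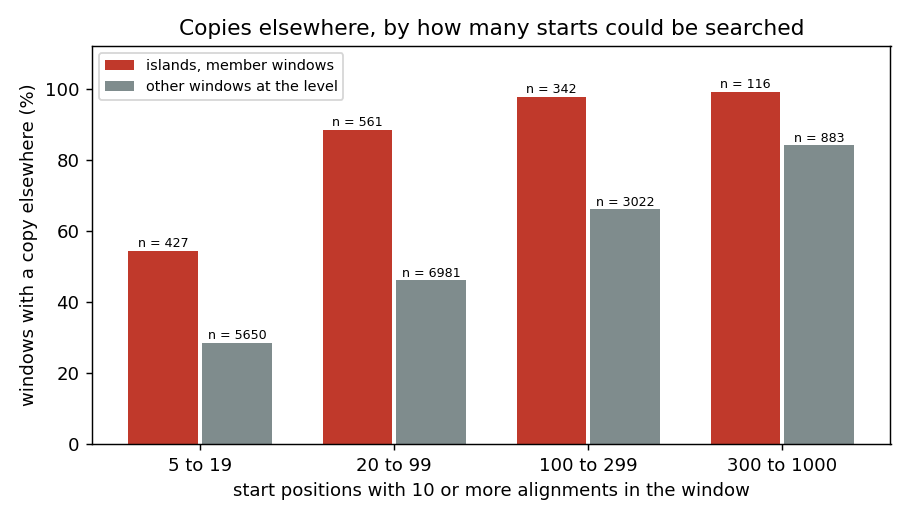
Percent of windows with a copy elsewhere, for member windows of islands (red) and other autosomal windows at the level (grey), in classes by the number of start positions that could be searched, with the number of windows over each bar. The red bar is the taller in each class, from 54.3% against 28.6% to 99.1% against 84.0%.

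Compared over litters, starts matched to a copy held 42.3%, 39.6% and 43.1% of alignments in member windows, against 26.7%, 25.3% and 27.4% in the other windows at the level. The difference was 15.2 ± 0.788 percentage points (SD, n = 3), higher in 3 of 3 litters. Matched starts are a single set, called from the counts of all 3 litters together, so the litters are not independent for this difference. With 3 litters an exact permutation of signs, two-sided, cannot go below p = 0.25, and gave that value. Against other windows weighted to the same classes of level (steps of 2-fold) it was 4.73 ± 0.326 points, also with an exact permutation p = 0.25. Without the member window of the most alignments, on chromosome 10, it was 22.2 ± 0.401 points. Of the alignments of a litter that share a start, all but 1 were counted as repeated. The repeated share was 91.2% ± 1.83 in member windows and 78.5% ± 2.65 in the others (SD, n = 3). That difference of 12.7 ± 0.833 points had p = 0.25 in the same exact test, and was 3.20 ± 0.333 points against windows weighted to the same classes of level. It was positive in 3 of 3 litters.

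Copies were many and mostly on other chromosomes. The 984 islands had 7111 places in all when matches within 10 kb were joined, with a median of 5 places and at most 33. There was 1 place for 193 islands, and 10 or more for 298. The place with the most matched starts lay on another chromosome for 910 islands. It lay in another autosomal window at the level for 741 islands, in another island for 174, on X or Y for 55, in autosomal sequence below the level for 9, on a contig for 4 and on the mitochondrial chromosome for 1. Mitochondrial start counts are approximate where coverage was rounded, and a match needs equal counts. Matches to that chromosome can therefore have been missed. Matched starts held a median of 49.7% of an island's alignments. They held 90% or more in 57 islands and under 10% in 63, and a start counted as matched only where all 3 litter counts were equal. The sixth island shared 674 start positions with a place on chromosome 13, chr13:51245912-51247911. The fifth shared 70 starts with chr16:11144229-11144369 and the same number with chr9:56071427-56071567, and both places held 49711, 27130 and 42068 alignments in litters 1 to 3. Those totals were identical, as were the widths of 141 bases. Since starts were matched on equal counts and spacing, this likeness follows from the search.

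Some islands were copies of one another. Such links joined 584 islands into 157 families, 71 of them pairs, and 7 families had 10 members or more. A link could rest on as few as 5 matched starts. A pair of families had 16 members each, the largest number. In the first, spread over 12 chromosomes, levels ran from 1.33 to 98.4 and blocks from 135 to 1774 bases. Its highest member, chr2:40411201-40412974, had levels of 100.4, 75.8 and 119.0 in litters 1 to 3, and the next, chr19:18001043-18002624, had 88.5, 66.8 and 110.3. The latter's block also reached beyond its member window, with 5930, 3948 and 8275 alignments against 3010, 2165 and 4464. Litter 2 was the lowest and litter 3 the highest in both. In the second family, spread over 10 chromosomes, levels ran from 10.5 to 158.6 and blocks from 101 to 757 bases. Its highest member, chr18:14583428-14584033, had 167.9, 134.8 and 173.0, with litter 2 again the lowest. Between litters the coefficient of variation had a median of 13.1% in the second family and 20.1% in the first, against 31.4% over all islands. Members of the second family had a median of 26.5 places each. Members were linked by equal start counts in every litter, so their likeness does not count as replication.

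The fourth, the seventh and the tenth islands by level belonged to a family of 9 on 7 chromosomes, looked at after its values were seen. Its levels ran from 435 to 1678 and its median block was 363 bases. In all 9 members litter 2 was at least 3-fold below both other litters, and the mean of litters 1 and 3 was 4.34 to 4.98 times litter 2, against a median of 1.16 over all islands. Members were linked by equal start counts in every litter, so this likeness is partly built in and does not count as replication. Among all 1539 islands, 47 had litter 2 at least 3-fold below both others, 16 had litter 1 so and 21 had litter 3 so. Among the 106 islands at 100 or more, these numbers were 19, 0 and 0. The 9 members of the family are among the 47 and among the 19. No share for the other windows at the level is set beside these numbers. The stretch chr17:39980001-39990000, outside the islands, held 17446, 4720 and 15409 alignments per 1000000 nuclear alignments, so litter 2 was the lowest there as well. Of all islands, the third alone had a matched place there, of 10 starts, and those starts held 0.754% of its alignments. What these islands share with that stretch beyond litter 2 being low was not tested.

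In 90 islands the matched sequence was compact in the island and spread out in its counterpart. There, consecutive stretches of matched starts (segments) kept their order but lay further apart in the other place. These were 9.15% of islands with a copy, 87 had the counterpart on another chromosome, and 41 had 3 segments or more. No share for the other windows at the level is set beside these counts, so they do not mark islands out. In 66 of the 90 the spread counterpart was also the place with the most matched starts, and in the others a different place ranked first. Segments in the opposite layout, closer together in the counterpart, were seen in 10 islands, each with a single pair. The search did not treat both sides alike. Starts of an island came from its member windows only, at most 2 of 1 kb, while a step in the counterpart could reach 100 kb. The 90 and the 10 therefore cannot be weighed against each other. The matched span had a median of 553.5 bases in the 90 islands and 1936.5 bases in their counterparts. The island with the most segments, chr8:53281143-53282540, had levels of 164.5, 126.4 and 173.7 in litters 1 to 3. Its 8 segments spanned 1391 bases, and in the counterpart, chr2:154698194-154718569, they spanned 20376 bases. They held 13954 of its 33455 alignments, summed over litters, at 536 of 1263 start positions. The matched starts of the counterpart, whose counts are equal by the search, held 56.4% of the 24754 alignments in its span.

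**Figure D4:**
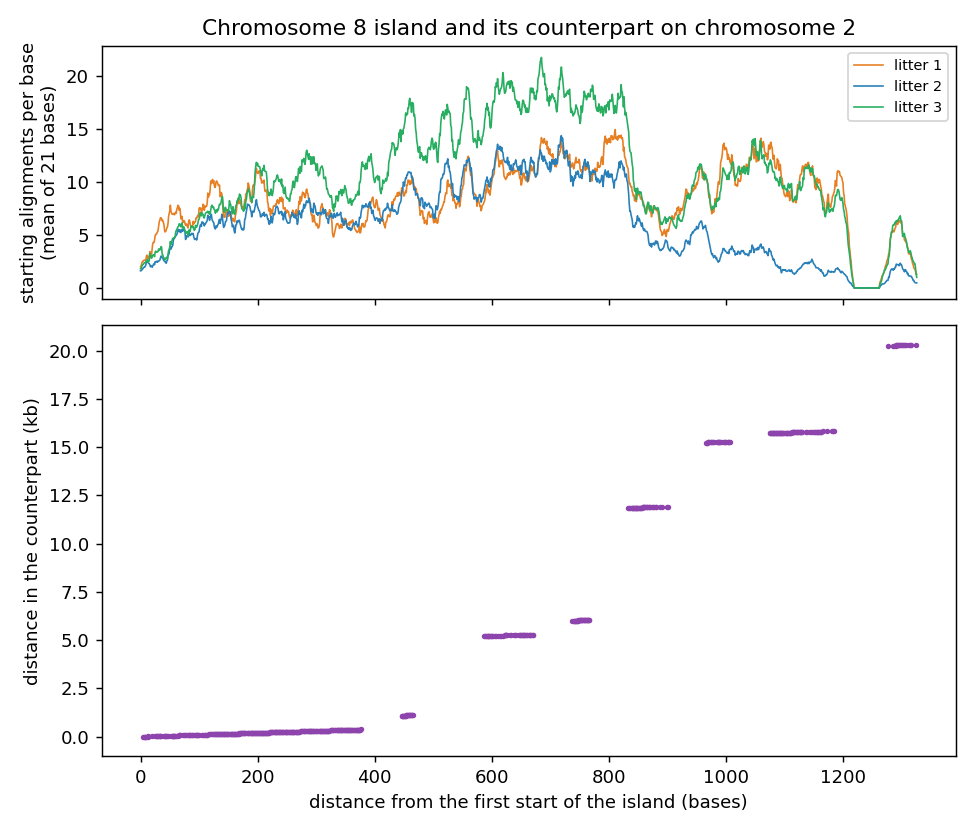
The upper panel shows starting alignments per base (mean of 21 bases) in each litter along the chromosome 8 island, and the lower panel places each of its 536 matched starts by distance in the island (bases) and in the counterpart on chromosome 2 (kb). The 8 segments lie close together along the 1391 bases of the island and far apart along the 20376 bases of the counterpart, and litter 2 lies below the other litters in the right-hand part of the island.

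Others had the same layout. The island chr14:24888954-24890133, with levels of 116.8, 139.0 and 111.2, had 6 segments over 1030 bases against 5960 bases in chr8:98244133-98250092. The island chr2:83193203-83194133, with 84.5, 81.9 and 50.4, had 5 segments over 800 bases against 3061 bases on X, at chrX:99380279-99383339. The X place had 224 matched starts, fewer than the 285 of chr5:3875397-3876237, which was 841 bases wide and so about as compact as the island. The island chr2:75029056-75029915, with 329.3, 214.0 and 269.8, had 4 segments over 784 bases against 2198 bases in chr4:86500566-86502763. That place had 471 matched starts. Places about as compact as the island came next, chrX:66858631-66859441 with 416 over 811 bases and chr9:53497592-53498409 with 370 over 818 bases. The lowest litter was litter 3 in the first and the second of these islands, and litter 2 in the last. These examples were chosen after their values were seen.

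In steps to a wider counterpart, the unmatched distance in the island between consecutive segments ran from 3 to 790 bases, with a peak just under 72. In steps to a narrower counterpart it ran from 143 to 1208 bases. Of 158 steps to a wider counterpart, 68 (43.0%) had a distance of 60 to 72 bases in the island, 67 being the most frequent with 14 steps. The range was chosen after the distances were seen, and 72 bases is the length of 1 alignment. In the 10 steps to a narrower counterpart the closer side is the counterpart, where the distance ran from 82 to 990 bases. The island itself was covered in those stretches: starts were present in 68 of 68, at a median of 1.05 times the density of the adjoining segments (range 0.734 to 1.85). In the chromosome 8 island, 5 of 7 steps lay in that range, at 70, 66, 66, 64 and 68 bases, and corresponded to 718, 716, 5812, 3321 and 443 bases in the counterpart.

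**Figure D5:**
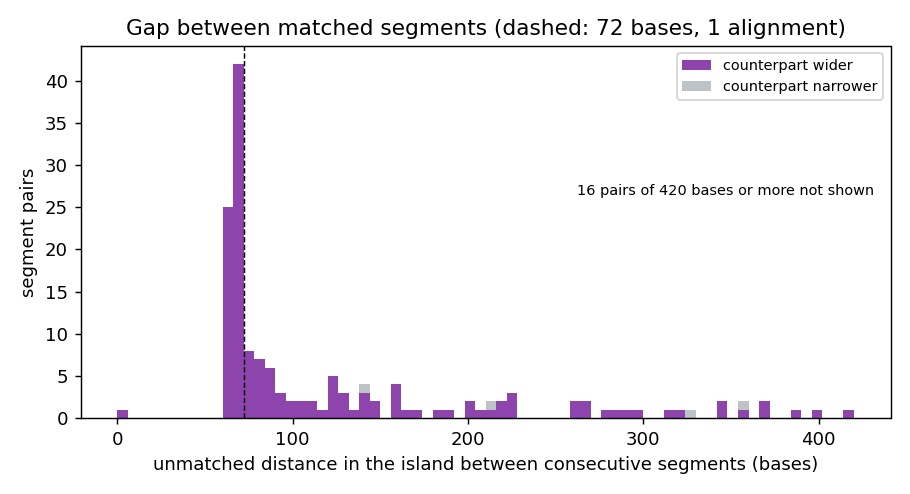
Number of consecutive segment pairs by their unmatched distance in the island (bases), for counterparts wider (purple) or narrower (grey) than the island, with a dashed line at 72 bases; 16 pairs of 420 bases or more are not drawn. Distances of 60 to 72 bases form the peak, with 68 of the 158 purple pairs.

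The 217 searched islands without a copy were lower and narrower. Their median level was 4.83 and their median block 242 bases, against 18.6 and 495.5 bases for islands with a copy. They also had fewer starts to search, with a median of 11 against 76, and the share found with a copy rose with that number. The highest, chr2:26976914-26977004, had levels of 526, 163 and 499 in litters 1 to 3 over a block of 91 bases. The next, chr1:102076673-102076959, had 519, 139 and 421. Litter 2 was the lowest in both, and also in chr10:42576551-42576647, which had 300.1, 93.6 and 240.5. The island chr12:99533929-99534530, with 268 start positions, had 226, 531 and 261, and there litter 2 was the highest. The island chr1:176751344-176752869 had 159.9, 287.6 and 241.7 over 1526 bases and 638 start positions, the widest of these 5. It had 539 searchable starts and no match, more than any other island without a copy.

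Litters differed by a median coefficient of variation of 31.4% per island. By mean level it was 29.6% from 1 to 3, 39.9% from 3 to 10, 27.5% from 10 to 100 and 21.1% at 100 or more. Near the limit the rule, with 1 or more asked of every litter, bounds how far litters can differ. Its part in the first of these values was not tested. The highest litter exceeded the lowest by over 2-fold in 680 islands (44.2%), over 4-fold in 162 and over 10-fold in 16. The highest litter was litter 1 in 501 islands, litter 2 in 414 and litter 3 in 624, and the lowest was litter 2 in 678. The same counts for the other windows at the level are not given here, so these do not mark islands out from them. The largest spread was in chr3:25630658-25631559, with 39, 79 and 951 alignments in its member window. The next, chr7:129585532-129586938, had 36, 63 and 766, so litter 3 stood alone in both. In chr13:16522989-16523579 litter 2 was low instead, with 713, 44 and 551. The island chr13:73468807-73469625 had 314, 549 and 43 in its member window and 390, 557 and 88 in its block, and chr12:101538977-101539980 had 73, 811 and 1118. Each litter is a single library, and no island was tested between litters.

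Islands chosen on a pair of litters were mostly seen in the third, which the choice had not used. Of 2157 islands chosen on litters 2 and 3, 1859 (86.2%) were at 1 or more in litter 1, where 2.71% of all autosomal windows were. Of 2259 chosen on litters 1 and 3, 90.4% were at 1 or more in litter 2, against 3.24% of all windows. Of 2197 chosen on litters 1 and 2, 85.0% were in litter 3, against 2.61%. Between 20 and 42 of these islands had no alignment in the third litter. Windows at the level in the same pair but without empty flanks reached 77.9%, 83.5% and 75.7% in litters 1 to 3. These shares and those of all windows are of single windows, while islands join adjacent windows, so the units differ. Without the demand for all litters the picture differed. There were 6595 windows with both flanks under the limit and at the level in any litter. Of these, 4014 (60.9%) were at it in a single litter, 714 (10.8%) in a pair and 1867 (28.3%) in all 3. For the windows with fuller flanks the shares were 58.4%, 18.5% and 23.1%, so a single litter was the most frequent in both kinds. Litter 2 had 1688 of the 4014 windows seen in a single litter, litter 1 had 1211 and litter 3 had 1115.

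Islands were found on every autosome. Chromosome 1 had the most, 142, and chromosome 19 the fewest, 40. Per Mb the numbers ran from 0.419 on chromosome 11 to 0.756 on chromosome 17, a narrower range for the other 17 autosomes, from 0.501 to 0.720. Chromosome 11 also had the most windows at the level per Mb, 16.7, and the smallest share of them in islands, 3.04%. The largest shares were 9.22% on chromosome 3 and 8.77% on chromosome 14, which had 9.65 and 9.20 windows at the level per Mb. Neighbouring islands began a median of 937.5 kb apart, and 60 neighbours began within 50 kb of each other.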

How the data were processed

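The submitters deposited coverage (signal): how many alignments lie over each base, unscaled, with a sorted BAM named in the track line of the file headers. Bowtie and mm9 stand in the submitters' processing notes, without version or settings. Starts were computed as running sums of coverage steps 72 bases apart. No nuclear chromosome gave a negative start. Mitochondrial coverage from 1000000 up is rounded, so starts there are approximate. Windows count starts. A count of 0 allows up to 3 alignments, or 0.0882, 0.0925 and 0.0741 per kb per 1000000 nuclear alignments in litters 1 to 3, for counting error only. Samples were grouped by title. SD and exact sign-flip tests are over litters, each 1 library. The SD gives the spread between these libraries. Where the differences of all litters share a sign, the exact sign-flip permutation test returns its smallest possible value whatever that spread. It therefore reflects only the shared sign.

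Named islands are the 10 highest, the 5 highest without a copy, the 5 of largest spread (SD of log2 level), the widest and narrowest block, windows at the limits and, for the largest families, their highest members. Members, rules and lists were chosen with earlier results of these data known. The mitochondrial comparison, the shares of matched alignments, the families and the segment layouts were added after values were seen. The scripts were tested on simulated data. Figures were drawn with matplotlib 3.10.9, and values computed with scipy 1.17.1, pandas 2.3.3 and numpy 2.4.6 under Python 3.11.15.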

Additional observations from a re-analysis of the deposited data

How the results depend on the processing

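The number of islands was 1539, and between 1095 and 2005 under another level, flank limit or window origin and with distinct start positions. It was 780 with flanks of 20 kb, and 2157 to 2259 without each litter in turn. The percent of all islands with a copy elsewhere was 63.9%. It was 50.9% at a level of 0.5, 77.5% at a level of 2, 72.8% with distinct start positions, 74.6% with 3 matched starts required, 51.4% with 10, and 53.8% to 56.3% without each litter. Of the islands that could be searched, the percent with a copy was 81.9%, and 76.0% to 89.2% over all alternatives. The median level, taken here as the mean of the litter medians, was 8.97, while the median of the island mean levels was 9.27. The former was 4.86 at a level of 0.5, 15.2 at a level of 2, 14.8 with distinct start positions and 6.42 to 7.18 without each litter. The search used the counts of all 3 litters in each of these settings, and the settings also change how many islands have enough starts to search. The median block was 278 bases with no gap joined and 701 bases with gaps of 500 bases joined. The difference in repeated alignments was 12.2 to 13.0 points without each litter. That in alignments at matched starts, whose alternatives were chosen after seeing the data, was 14.9 to 15.7 points. Its starts were still matched on the counts of all 3 litters. With 2 litters the smallest p is 0.5, so these ranges say nothing of the test's side. No paired analysis was possible because there is 1 group, so no groups share litter numbers; the sign-flip tests compare windows within each litter. Depth limits the search: 338 islands had too few alignments.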

Other observations

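The same rule on chromosome X, which the autosomal islands leave out, gave 157 islands, 0.942 per Mb, above the 0.419 to 0.756 per Mb of the autosomes. They took 12.1% of the 1518 windows at the level on X, against 3.04% to 9.22% on autosomes. Their median level was 8.56, and 111 of 127 searched had a copy elsewhere. Chromosome Y gave 1 island at a level of 92.8. These chromosomes were compared as values, with no test.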
